A study of Mus musculus with 2 samples.

Results

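The Bcl2 family decides whether a cell keeps its mitochondria intact or dies by apoptosis. Anti-apoptotic members bind and restrain the pore-forming members Bax and Bak1, and the BH3-only members relieve that restraint or activate the pore formers directly. In T cells Bcl2 and Mcl1 are known to sustain resting and cytokine-supported cells, Bcl2l1 to be raised on activation, and Bcl2l11 to drive the loss of cells at the end of a response. Gata3, the transcription factor that directs TH2 differentiation, was mapped here over 10 of these genes, which were chosen by name from the 21938 protein-coding genes on chromosomes 1 to 19, X and Y of the GENCODE M21 annotation of mouse build GRCm38. They are the anti-apoptotic genes *Bcl2*, *Bcl2l1* (Bcl-xL), *Bcl2a1b* (A1) and *Mcl1*, the pore-forming *Bax* and *Bak1*, and the BH3-only *Bcl2l11* (Bim), *Bbc3* (Puma), *Pmaip1* (Noxa) and *Bid*. A locus is the gene body with 20 kb either side.

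The data were 2 Gata3 ChIP-seq libraries, replicates 1 and 2, of splenic mouse TH2 cells expanded in culture, in which chromatin was immunoprecipitated with the anti-GATA3 antibody D13C9 and tagmented on the beads. The paper's TH2 cultures received plate-bound anti-CD3, anti-CD28, IL-2, IL-4 and an antibody to IFN-γ. The paper's mouse lines were on the C57BL/6 background. The labels do not give the genotype or age of the mice behind these libraries, although the names the authors gave both deposited libraries carry the tag CD4cre, and the paper lists a line with Cre at *Cd4* among its mice. One protocol field of the labels names ILC2 where the others name TH2. Both libraries belong to 1 condition, no input library was used here, and nothing states that they came from separate animals, so the spread between them may be technical. Library 1 held 40526613 reads and library 2 24970952, and 1 read stood for 0.0247 and 0.0401 RPM, the reads per 1000000 of the library on these chromosomes. The read names carried a different sequencing instrument in each library, which cannot be told apart from any other difference between them. Of the marker lists, 6 of 6 TH2 loci and 4 of 5 T cell genes held a shared peak in the body or at the promoter, against 0 of 5 B cell and 1 of 5 myeloid genes and 33.4% of all protein-coding genes. Counted with 20 kb either side, as for the genes below, the lists came closer together, at 6 of 6, 4 of 5, 3 of 5 and 4 of 5. The share of all protein-coding genes counted that way was 54.8%. Reads over the T cell receptor delta D and J segments, which are lost when the alpha chain gene rearranges, numbered 7 and 4, or 0.0202 and 0.0187 times the library mean per base. The share of unique sequence over those segments was not measured.

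A peak is a run of 200-bp windows in which the reads exceeded the highest of the library, 5-kb and 10-kb means at a Benjamini-Hochberg q of 0.01 in a one-sided exact Poisson test. It is called shared where the peaks of both libraries overlap. Its height is the RPM in its highest window in each library, and its place among all 23806 shared peaks was taken from the lower of both heights. All fold values over local background rest on a mean that includes the peak's own reads, and p-values over windows measure counting error only.

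Shared peaks lay at 9 of the 10 genes. The background was high, since 54.8% of all protein-coding genes held at least 1 shared peak in a locus drawn the same way (95% exact binomial interval 54.1 to 55.4). At a q of 1e-10 only *Bcl2*, *Bak1* and *Bid* still held one, against 19.6% of all protein-coding genes. At 5-fold or more over local background in both libraries *Bcl2*, *Bax*, *Bak1* and *Bid* did, against 24.5% of all protein-coding genes. There were 25 shared peaks over the 10 loci. Library 1 alone gave more peaks at 9 genes, 24 at *Bcl2*, 9 at *Bcl2l1*, 8 at *Bid*, 7 each at *Bax* and *Pmaip1*, 4 each at *Mcl1* and *Bcl2l11*, 3 at *Bbc3* and 2 at *Bak1*, while library 2 alone gave 12 at *Bcl2* and the shared count at the other 8. The shared peaks came to 3.41 per 100 kb, against 1.36 over the loci of all protein-coding genes and 0.873 over the genome. The anti-apoptotic genes held 14 at 3 of 4 genes, the pore-forming genes 2 at 2 of 2, and the BH3-only genes 9 at 4 of 4. These counts are not scaled to locus length, and 10 of the 14 lay at *Bcl2*, the longest locus. Of the 25 summits, 17 lay in introns of the gene itself and 8 outside it. A shared peak within 2 kb of an annotated transcript start was present at 2 members, *Bbc3* and *Bid*, where the background over all genes was 17.2%.

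The sequence at the summit is shown for the peaks that carry the account below, as 101 bases of GRCm38 on the plus strand centred on the summit of library 1. Capitals mark the GATA motif (the letters AGATAA, with T also allowed in the first place and G in the last, on either strand) and the AP-1 motif (the letters TGACTCA or, alternatively, the form TGAGTCA). The first 2 are the tallest of *Bcl2*, which hold neither motif, and are followed by the *Bcl2* peak nearest its start.
Bcl2 intron 1, chr1:106613000-106613100: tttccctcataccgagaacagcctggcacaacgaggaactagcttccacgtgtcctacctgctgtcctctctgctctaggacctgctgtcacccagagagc
Bcl2 intron 1, chr1:106678400-106678500: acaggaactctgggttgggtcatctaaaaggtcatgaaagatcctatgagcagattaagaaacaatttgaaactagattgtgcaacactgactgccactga
Bcl2 intron 1, chr1:106687550-106687650: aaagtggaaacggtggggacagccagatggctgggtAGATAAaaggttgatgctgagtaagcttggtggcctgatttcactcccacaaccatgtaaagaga
Bcl2l1 intron 2, chr2:152825000-152825100: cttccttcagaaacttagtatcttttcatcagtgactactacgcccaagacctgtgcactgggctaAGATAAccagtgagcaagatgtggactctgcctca
Mcl1 upstream, chr3:95648250-95648350: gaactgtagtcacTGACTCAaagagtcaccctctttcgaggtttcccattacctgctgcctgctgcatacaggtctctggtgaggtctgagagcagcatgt
Bak1 downstream, chr17:27012050-27012150: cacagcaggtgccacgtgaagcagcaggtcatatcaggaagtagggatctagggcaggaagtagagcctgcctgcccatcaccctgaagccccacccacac
Bcl2l11 upstream, chr2:128117550-128117650: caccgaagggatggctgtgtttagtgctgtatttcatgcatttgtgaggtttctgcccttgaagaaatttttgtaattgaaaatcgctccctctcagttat
Bbc3 intron 1, chr7:16309100-16309200: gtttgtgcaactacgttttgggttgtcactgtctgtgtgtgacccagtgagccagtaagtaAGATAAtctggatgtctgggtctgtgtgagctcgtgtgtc
Bid intron 1, chr6:120915850-120915950: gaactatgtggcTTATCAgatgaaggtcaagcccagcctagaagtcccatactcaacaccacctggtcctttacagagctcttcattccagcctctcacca

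*Bcl2*, the founding inhibitor of mitochondrial apoptosis, held the most shared peaks of the 10 genes, 10 in all. Only 0.688% of protein-coding genes held 10 or more, but the *Bcl2* locus is long, at 216.097 kb (gene on the minus strand, chr1:106538178-106714274), and its rate was 4.63 per 100 kb, against 6.16 at *Bid*, an order that turned against the library mean (16.7 at *Bcl2* and 12.3 at *Bid*). Of the 10, 9 lay in intron 1, between 26.674 and 142.774 kb from the gene start, and the last lay 195.674 kb from it, beyond the end of the gene. No shared peak lay at the *Bcl2* promoter, nor did either library have one of its own there. Only against the library mean was a shared peak called at that promoter. The count of 10 depended on the settings. It was 6 with 100-bp windows or with summits within 100 bp of each other, 2 at a q of 1e-10, 1 where both libraries had to reach 5-fold over local background, and 36 against the library mean.

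The tallest *Bcl2* peak stood 101.224 kb into the gene, with 79 reads (1.95 RPM) in library 1 and 62 reads (2.48 RPM) in library 2. It was 1300 bp wide, stood 4.55-fold and 4.60-fold over the local background, and was higher than 89.5% of all shared peaks. Next came the peak at 35.824 kb, with 67 reads (1.65 RPM) and 62 reads (2.48 RPM), higher than 85.4% of all shared peaks. These are the first 2 sequences above, and their summits had no GATA motif within 100 bp. The nearest lay 138.5 and 216.5 bp away. The other 8 *Bcl2* peaks ranged from 0.642 to 1.38 RPM in library 1 and from 0.721 to 1.16 RPM in library 2. The peak at 26.674 kb, the third sequence above, had 56 and 26 reads and an AGATAA centred 11.5 bp from its summit. Across the locus the reads per 200-bp window of both libraries had a Pearson r of 0.81 over 1081 windows, a description in which the windows share base composition and mappability.

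**Figure D1:**
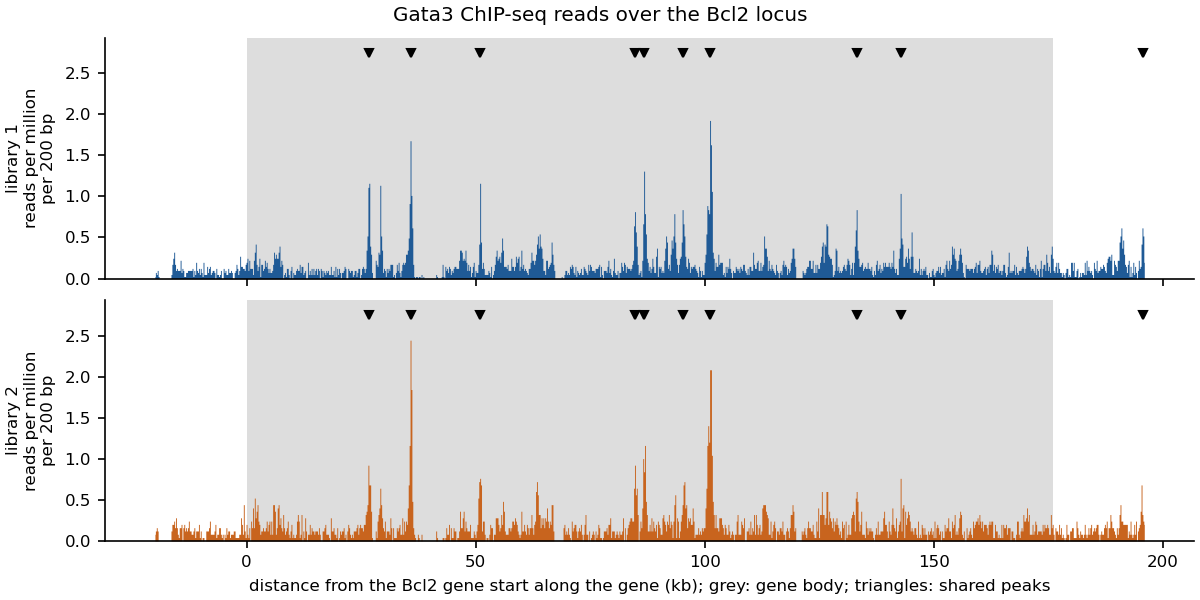
Reads in 200-bp windows, in RPM, over the *Bcl2* locus in library 1 (top) and library 2 (bottom), by distance in kb from the gene start along the gene. Grey marks the gene body and triangles the 10 shared peaks, 9 of which lie in intron 1, with the tallest at 35.824 and 101.224 kb.

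*Bcl2l1*, which encodes the anti-apoptotic Bcl-xL and a shorter pro-apoptotic form by splicing, held 3 shared peaks, all in intron 2 (minus strand, chr2:152780668-152831728). They lay 6.678, 36.928 and 41.928 kb from the gene start. The first had 61 reads (1.51 RPM) in library 1 and 28 (1.12 RPM) in library 2, with an AGATAA centred 18.5 bp from the summit. The second had 61 and 27 reads and no GATA motif within 250 bp. The last had 52 and 31 reads and stood only 2.03-fold and 2.31-fold over a local background that was itself high. Around it a 5-kb stretch carried 643 and 335 reads, 8.65 and 7.32 times the library mean. The protein-coding start nearest this peak was that of *Cox4i2*, a cytochrome c oxidase subunit gene, but it was 34706 bp away. The nearest annotated *Bcl2l1* transcript start was 38735 bp away. A peak at the *Bcl2l1* promoter was called in library 1 alone.

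*Mcl1*, a short-lived anti-apoptotic protein gene, held 1 shared peak, 10.488 kb upstream of its start (plus strand, chr3:95658788-95663176). It was among the lowest of all, with 19 reads (0.469 RPM) and 12 reads (0.481 RPM), higher than 8.33% of shared peaks. A TGACTCA lay 34 bp from its summit and no GATA motif within 250 bp. This peak was no longer called with windows of 100 or 400 bp.

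*Bax* and *Bak1* encode the pore-forming proteins, and neither held a shared peak in its own body. The peak assigned to *Bax* lay 15.548 kb beyond its start, in an exon of *Gys1*, the muscle glycogen synthase gene, and 325 bp from the start of *Gys1*. It had 31 reads (0.765 RPM) and 14 reads (0.561 RPM), and it was no longer shared where the summits had to lie within 100 bp. The peak assigned to *Bak1* lay 16.909 kb beyond its start, in intron 2 of *Ggnbp1*. It had 53 reads (1.31 RPM) and 29 reads (1.16 RPM), and of the 25 peaks it stood highest over its local background in library 1, at 7.53-fold, with 6.78-fold in library 2. Its summit held no GATA motif within 100 bp, and the nearest was 245.5 bp away.

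*Bcl2l11* encodes Bim, a BH3-only protein that binds every anti-apoptotic member. Its main shared peak lay 8.438 kb upstream of the start, in intron 17 of *Acoxl*, an acyl-CoA oxidase-like gene (*Bcl2l11* on the plus strand, chr2:128126038-128162547). With 106 reads (2.62 RPM) in library 1 it was the tallest of the 25 in that library, while library 2 had 40 reads (1.60 RPM). The 5-kb stretch around it carried 667 and 305 reads, 8.98 and 6.66 times the library mean. A TTATCA, the GATA motif on the minus strand, was centred 57.5 bp from the summit, just past the bases printed. The other shared peak, in intron 4 and 30.912 kb from the start, had 27 and 21 reads and no GATA motif within 100 bp. A peak at the *Bcl2l11* promoter was called in library 1 alone.

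*Bbc3*, the p53-induced gene for Puma, held a shared peak in intron 1, 0.757 kb inside the gene and 466 bp upstream of another annotated transcript start (plus strand, chr7:16308393-16318205). It had 57 reads (1.41 RPM) and 23 reads (0.922 RPM), and an AGATAA was centred 13.5 bp from its summit. This promoter peak was no longer shared where the summits had to lie within 100 bp. A lower peak 13.443 kb upstream had 29 and 17 reads, and the nearest start was that of *Ccdc9*. *Pmaip1*, the gene for Noxa, held 1 shared peak 12.817 kb beyond its start, with 38 reads (0.938 RPM) and 17 reads (0.681 RPM) and a GATA motif centred 11.5 bp from the summit. The shared peak was no longer called with 100-bp windows. At the *Pmaip1* promoter 2 peaks were called in library 1 and 0 in library 2.

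*Bid*, which links death receptors to mitochondria when caspase-8 cleaves it, held 4 shared peaks (minus strand, chr6:120891930-120916853). Its count was 2 with 100-bp windows, at 5-fold or more, or with summits within 100 bp, 1 at a q of 1e-10 and 8 against the library mean. The tallest lay in intron 1, 0.953 kb from the gene start, with 90 reads (2.22 RPM) and 42 reads (1.68 RPM), 5.73-fold and 5.50-fold over local background. The GATA motif was centred 35.5 bp from its summit and the AP-1 motif 54 bp away, the latter outside the printed bases. The peak in intron 6, 24.003 kb from the start, had 33 and 15 reads, at summits 250 bp apart. Its library 1 summit also held both, with the GATA motif centred 10.5 bp away and the AP-1 motif at the summit. Library 2 had 6 reads (0.240 RPM) at that position. *Bid* thus accounted for the 2 member summits with a GATA and an AP-1 motif. The peak at 13.303 kb in intron 1 also fell within the locus of the neighbouring family gene *Bcl2l13*. The last lay 10.047 kb upstream, nearest the start of *Mical3*. It had 18 reads (0.444 RPM) in library 1 and 24 reads (0.962 RPM) in library 2, at summits 200 bp apart. At the library 1 summit library 2 had 10 reads (0.401 RPM).

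**Figure D2:**
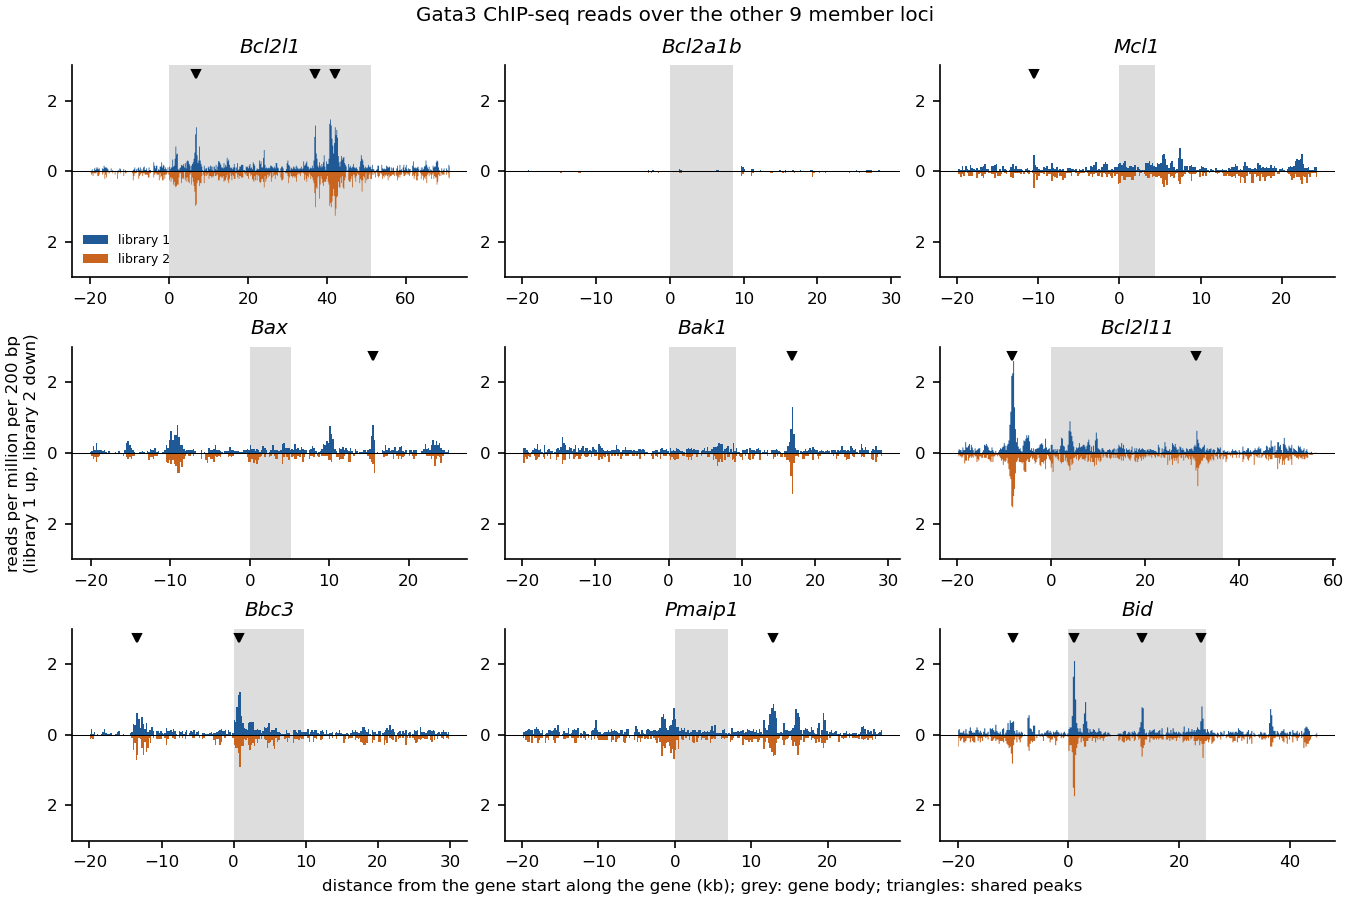
Reads in 200-bp windows, in RPM, over the other 9 loci, library 1 upwards and library 2 downwards from 0, by distance in kb from each gene start. Grey marks the gene body and triangles the shared peaks, which stand at 8 of these 9 genes, whereas *Bcl2a1b* is nearly without reads.

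In height the 25 peaks were ordinary. Their median was 1.04 RPM in library 1 and 0.962 RPM in library 2, against 0.988 and 0.881 RPM over all shared peaks, and 10 of the 25 lay below the median of all shared peaks. The tallest reached 1.95 RPM in its lower library, where the tallest of the genome reached 5.75 RPM. Read at its own summit in each library, the height was greater in library 1 for 17 peaks and in library 2 for 8. At the library 1 summit, reads of the libraries differed for 0 of the 25 peaks in a two-sided exact binomial test adjusted over all 23806 shared peaks, where 1.94% of all shared peaks differed, 1.64% with library 1 higher and 0.294% with library 2 higher. The library 1 summit is the highest window of the library 1 peak, a choice that favours library 1 before any test. The direction at these summits therefore cannot be read as a difference between the libraries. Among the members, the RPM was higher in library 1 at 22 of the 25 library 1 summits and at 10 of the 25 library 2 summits. Without adjustment 6 of the 25 were below 0.05, and the smallest adjusted p, by this exact test, was 0.078 for the *Bid* peak in intron 6. Counted over the whole peak instead, a choice made after seeing the data, 3 of the 25 differed, where 15.7% of all shared peaks did. The p-values of this test compare single libraries and measure counting error only. Library 1 was higher upstream of *Bcl2l11* (399 against 149 reads, 9.85 and 5.97 RPM, adjusted p = 1.1e-05, exact binomial test) and at the *Bbc3* promoter (156 against 56 reads, 3.85 and 2.24 RPM, adjusted p = 0.0059, exact binomial test). Library 2 was higher at the *Bcl2* peak at 35.824 kb (169 reads in library 1 against 158 in library 2, 4.17 and 6.33 RPM, adjusted p = 0.0037, exact binomial test).

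**Figure D3:**
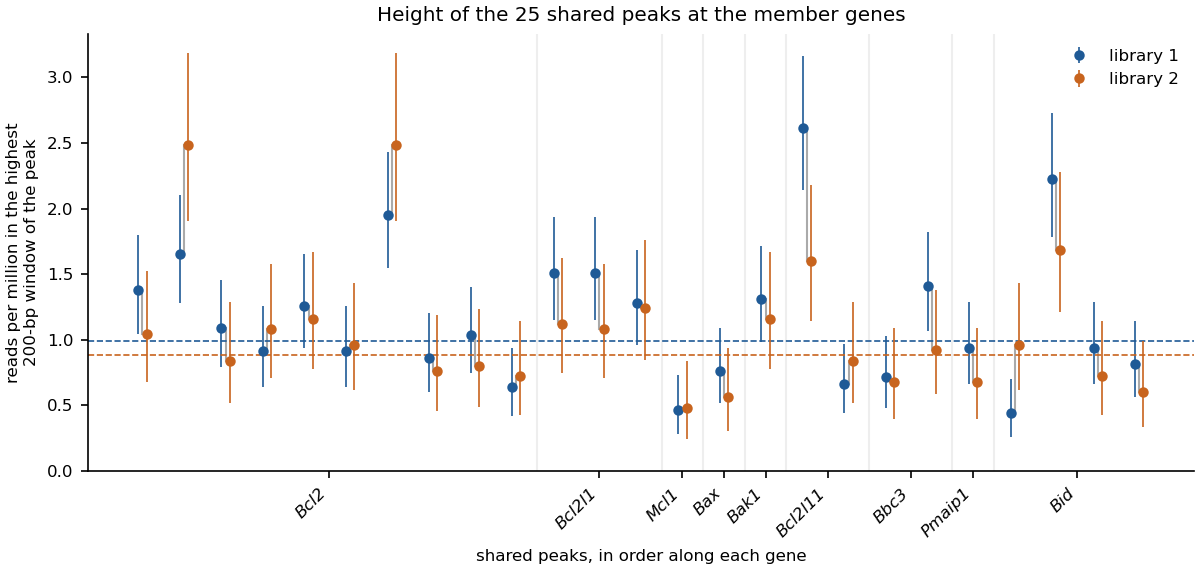
Height of the 25 shared peaks, in RPM of the highest 200-bp window, in library 1 (blue) and library 2 (orange), with 95% exact Poisson intervals. The dashed lines are the medians of all shared peaks, 0.988 and 0.881 RPM, and peaks of *Bcl2*, *Bcl2l11* and *Bid* stand farthest above them.

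The GATA motif lay within 100 bp of 11 of the 25 member summits (44%). It lay within the same distance of 71.0% of all shared summits and of 33.4% of windows of that length 1 kb to either side. By gene it was found at 3 of 10 summits of *Bcl2*, 2 of 3 of *Bcl2l1*, 2 of 4 of *Bid*, 1 of 2 of both *Bcl2l11* and *Bbc3*, and the only summits of *Bax* and *Pmaip1*, but not at those of *Mcl1* and *Bak1*. The form AGATAA, which is part of that count, was at 6 member summits (24%, against 40.8% of all shared summits and 11.7% of the side windows). Within 250 bp, a distance set after seeing the data, 20 of 25 member summits (80%) and 88.6% of all shared summits held the GATA motif. With 25 peaks from 9 genes these shares are descriptions and were not tested.

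Other motifs were searched in the same windows on both strands. AP-1 was at 4 member summits (16%, against 12.3% of all shared summits and 3.55% of side windows). The RUNX letters TGTGGT or TGCGGT were at 3 (12%, against 18.7% and 16.1%). The STAT palindrome TTCNNNGAA was at 5 (20%, against 7.58% and 6.35%). They were the *Bcl2* peaks at 95.224, 101.224 and 133.224 kb, the *Bcl2l1* peak at 36.928 kb and the *Bax* peak. At the tallest *Bcl2* peak TTCACAGAA was centred 87 bp from the summit. The palindrome with 1 more base between its arms was at 1 (4%, against 5.94% and 5.60%). At 6 summits none of these motifs was found.

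Read density over the whole locus ordered the genes in much the same way in both libraries. *Bcl2l11* had 2.37 and 2.18 times the library mean per base (2.27 ± 0.137, SD, n = 2), *Bcl2* 2.17 and 2.36 times (2.27 ± 0.136) and *Bcl2l1* 2.26 and 2.19 times (2.23 ± 0.0557). These 3 did not differ beyond their spread and stood above 96.5% or more of all protein-coding genes. *Pmaip1* (1.87 ± 0.0593) and *Bid* (1.79 ± 0.0376) followed, with ranges that did not overlap. Then came *Mcl1* (1.59 ± 0.0490), *Bbc3* (1.56 ± 0.0368), *Bax* (1.48 ± 0.197) and *Bak1* (1.36 ± 0.0698), in which each gene's range over the libraries overlapped that of the next. The median of the 10 members was 1.69 times the library mean and that of all protein-coding genes 1.35. *Bak1*, at the 50.8th percentile of genes, was thus an average locus. The order given is that of the mean of both libraries over the locus with its flanks. Per unique position *Bcl2* (1.97) came before *Bcl2l1* (1.93) and *Bcl2l11* (1.91), and *Bbc3* (1.40) before *Mcl1* (1.38). Over gene bodies alone *Bcl2l1* (3.08 times) came first and *Bbc3* (2.82 times) next, ahead of *Bcl2* (2.42), *Bid* (2.29), *Bcl2l11* (2.07) and *Mcl1* (2.04), with *Bax* (1.67), *Pmaip1* (1.66) and *Bak1* (1.53) behind.

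Around the gene start, within 2 kb either side, the order was different. *Bid* came first, with 288 and 156 reads, 4.84 and 4.26 times the library mean. *Pmaip1* had 3.77 and 3.71 times and *Bbc3* 4.20 and 2.89 times, and the lowest of these, *Bbc3*, stood at the 93.0th percentile of genes. *Bcl2l1* (2.84 and 2.84 times), *Bcl2l11* (2.02 and 2.67 times), *Bcl2* (2.20 and 2.35 times) and *Mcl1* (125 and 82 reads, 2.17 times on average) lay above the median of all gene starts, which was 1.52. *Bax* (1.23 and 1.50 times) and *Bak1* (1.14 and 1.26 times) lay below it.

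**Figure D4:**
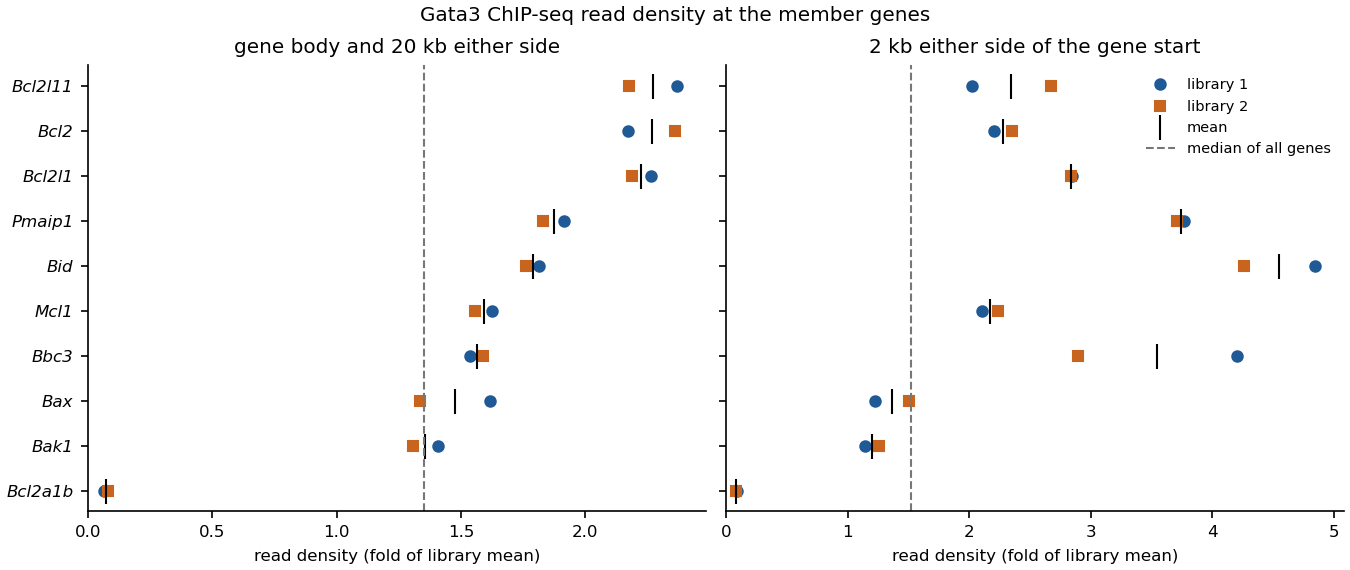
Read density as a multiple of the library mean per base over each locus (left) and within 2 kb of each gene start (right), for library 1 (circles), library 2 (squares) and their mean (bars). The dashed lines mark the medians of all protein-coding genes, 1.35 and 1.52. *Bcl2l11*, *Bcl2* and *Bcl2l1* lead on the left, *Bid* on the right, and *Bcl2a1b* lies near 0 in both.

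*Bcl2a1b*, one of the duplicated mouse genes for the anti-apoptotic protein A1, was the exception. Its locus (plus strand, gene at chr9:89199209-89207827) held 45 reads in library 1 and 35 in library 2, or 0.0704 ± 0.0115 times the library mean (SD, n = 2), and no peak in either library. The authors kept only reads with a unique position, and this locus has little unique sequence. Of the 50-base stretches of the locus, 39.8% occurred once in the genome, against 92.6 to 99.3% at the other 9 loci. For positions drawn at random the share was 83.4%, with those in assembly gaps counted as not unique. The same 50 bases were found at *Bcl2a1a* or *Bcl2a1d* for 55.4% of stretches of the *Bcl2a1b* locus. No read started at a repeated position in either library. Per unique position, scaled to the unique share of the genome, the density of the locus was 0.148 times the library mean.

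Near copies went further than exact ones. Of the stretches that occurred once, 77.8% had a copy in the cluster with 3 mismatches or fewer, and near copies elsewhere were not searched. That left 8.82% of the locus free of both exact copies and near copies in the cluster. There, 29 and 25 reads gave 0.379 and 0.531 times the library mean, again scaled to the unique share of the genome. On the same scale the stretches with a near copy had 0.0597 and 0.0605 times. Within the gene body the part free of both was 3.91%, with 0 reads in library 1 and 1 in library 2. The gene body aligned with *Bcl2a1d* over 99.5% of its length, with 97.9% identity in the longest alignment, and with *Bcl2a1a* over 64.3%, with 95.3% identity. One such pair is printed to show how little separates the copies, each 5′ to 3′ along its own gene with the differing base in capitals.
Bcl2a1b, plus strand, chr9:89199958-89200007: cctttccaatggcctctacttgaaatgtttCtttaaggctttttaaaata
Bcl2a1d, minus strand, chr9:88731075-88731124: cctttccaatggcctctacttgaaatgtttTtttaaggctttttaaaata
The loci of the copies were also nearly empty, with 19 and 14 reads at *Bcl2a1a* and 72 and 48 at *Bcl2a1d*. Low binding and lost reads cannot be told apart over most of this cluster, and how much of the shortfall goes with the lost reads was not tested.

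**Figure D5:**
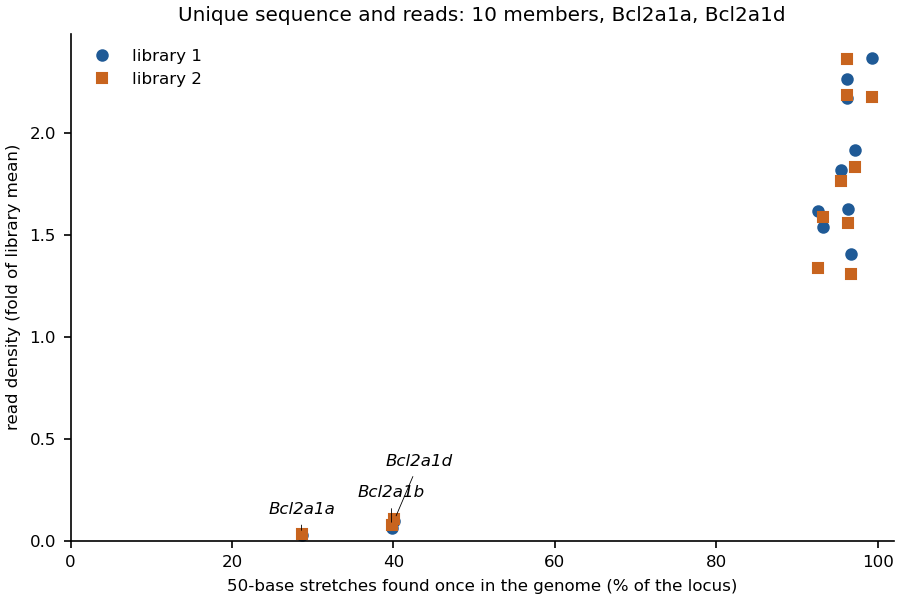
Read density of each locus as a multiple of the library mean (vertical) against the percent of its 50-base stretches found once in the genome (horizontal), for the 10 members, *Bcl2a1a* and *Bcl2a1d*. The 3 *Bcl2a1* loci lie at 28.6 to 40.1% unique and near 0 reads, and the other 9 at 92.6% or more.

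The rest of the death pathway was counted in the same way, against the background of 54.8% for loci and 17.2% for promoters. Of 15 other Bcl2 family genes, 8 held a shared peak in the locus and 3 at the promoter. The tallest was near *Bcl2l15* (161 and 87 reads, 3.97 and 3.49 RPM), followed by *Bad*, a BH3-only gene (2.67 and 2.80 RPM), and *Bcl2l14* (1.93 and 2.16 RPM). Among the 15, *Bcl2a1a* and *Bcl2a1d* held none, and their loci have little unique sequence. Of 16 genes that act after the mitochondria, 13 held a shared peak in the locus and 5 at the promoter. Among them were *Casp6*, an effector caspase gene (94 and 58 reads, 2.32 and 2.32 RPM), and *Casp9*, the initiator caspase gene (2.20 and 1.20 RPM).

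Of 10 death receptor pathway genes, 9 held a shared peak in the locus and 5 at the promoter, with the tallest near *Tradd* (3.38 and 3.73 RPM) and *Traf2* (3.28 and 3.37 RPM), both adaptors of TNF receptors, and at *Fas* (2.44 and 3.29 RPM). Of 17 upstream regulators, 15 held one in the locus and 6 at the promoter. The tallest was 71 bp from the start of *Il2rb*, the IL-2 receptor beta chain gene (203 and 168 reads, 5.01 and 6.73 RPM), followed by *Nfkb1* (3.53 and 3.97 RPM) and *Il2ra* (2.25 and 2.52 RPM). By the lower library, the peaks near *Bcl2l15*, *Casp6*, *Tradd* and *Il2rb*, 1 from each of these 4 lists, were taller than any of the 25 member peaks. A peak in a locus may belong to a neighbouring gene. Where loci overlapped the same peak was counted at both genes, as happened among the upstream regulators. It also happened at *Bcl2l13*, whose tallest shared peak was one of those of *Bid*. No expression was measured in these libraries.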

How the data were processed

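Per the paper's methods, the authors mapped single-end reads against GRCm38 using Bowtie2 and discarded those with more than 1 possible position. The submitters' processing notes name Bowtie2 2.3.5.1 and MACS2 2.1.2, the latter without a role. The deposited files list 1 read per line, with start and end (other values, used as positions) and a score, which is the aligner's mapping quality and not a measure of binding. In the files 0 reads share a 5′ end and strand within a library, so duplicates had been removed, which limits the height of a peak.

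Reads on chromosomes 1 to 19, X and Y were moved downstream by 100 bp along their strand, and 200-bp windows at 50-bp steps were filled with them. Windows past a q of 0.01 and up to 100 bp apart were joined, and peaks of both libraries overlapping by 1 bp or more were called shared. A peak belonged to a gene by its library 1 summit. The library 2 height was taken at its own summit. Differences between libraries were tested with the two-sided exact binomial test given library sizes, adjusted over all shared peaks at 0.05. With 1 condition no groups were compared. The exact 95% intervals given account for counting error alone. Unique sequence was counted in stretches of 50 bases over the primary assembly, with 200000 random positions for the genome, and alignments were made with blastn 2.17.0. The *Bid* locus also has a copy of 82.6% of its stretches on an alternate or patch sequence, which was not counted as a second copy.

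The member genes, the gene lists and the markers were chosen with earlier results of these data known. The text names the members, the gene holding each shared peak or with the nearest start, and the 3 genes of each pathway list with the tallest shared peak by the lower RPM, except 1 that is not reported here. Peak calling and the library test were run on simulated counts that carried counting error only. Such counts lack any further spread of real libraries and do not give the error rate on these data. Python 3.11.15, NumPy 2.4.6, SciPy 1.17.1 and Matplotlib 3.10.9 were used. Alternatives covered the q, the window, the background, the mapping quality, the flank, the promoter, the motif and each library alone.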

Additional observations from a re-analysis of the deposited data

How the results depend on the processing

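No paired analysis was possible because both libraries belong to 1 condition. The count of 9 members with a shared peak stayed within 1.5 times under the other settings, but was 5 over gene bodies alone, 3 with the q lowered to 1e-10 and 4 where a peak had to reach 5-fold over local background. The 25 shared peaks became 4 at a q of 1e-10, 5 at 5-fold or more, 15 with 100-bp windows, 16 with summits within 100 bp and 90 with the library mean as background. From 1 library alone they numbered 27 to 68, the members with a peak 9 to 9, and those with a promoter peak 2 to 5. The 2 members with a promoter peak became 1 with the q set to 1e-10 (4.23% of all genes), with the 5-fold minimum (4.26%) and with summits within 100 bp (14.2%), and 7 against the library mean (40.7%), while 1 library alone gave 18.9 to 37.9% of all genes. The 54.8% of all genes moved with them, to 29.4% over gene bodies, 71.2% with 50 kb either side, 19.6% at a q of 1e-10, 24.5% at 5-fold or more, 56.8% and 45.6% with 400-bp and 100-bp windows, 76.6% against the library mean, 49.2% with summits within 100 bp, 52.3% with library 1 thinned, and 58.9 to 81.2% from 1 library. The 11 summits with a GATA motif became 6 for AGATAA alone, 1 of 4 at a q of 1e-10 (25%, against 74.3% of all shared summits), 20 within 250 bp and 17 anywhere in the peak (68%, against 89.6%), the last 2 set after seeing the data. From 1 library they were 10 to 39, which is 37.0% against 63.9% of all summits in library 2 and 57.4% against 68.8% in library 1. The median density of 1.69 became 1.48 per unique position and 2.06 over gene bodies, and 1.68 to 1.72 from 1 library. Of the 25 peaks, 2 differed between libraries with 400-bp windows (8.15% of all shared peaks did), 3 over the whole peak (15.7%) and 1 at the library 2 summit (0.916%), the last 2 set after seeing the data. The cause of these shifts was not tested. Library 1 called 71726 peaks and library 2 28204, and library 1 thinned to the depth of library 2 called 47200. Absence of a shared peak was not a test of absent binding.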
